A study of Danio rerio with 20 samples.

Results

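The regions described here are the sites where a peak was listed for Meis2b but for none of 3 other antibodies in zebrafish gastrulae exposed to all-trans retinoic acid (atRA). They are 1141 of the 43644 Meis2b peaks listed on the 25 assembled chromosomes for atRA replicate 2. Each member overlaps, by at least 1 bp, a Meis2b peak of atRA replicate 1 and no peak in any of the 12 lists of Raraa, Hoxb1b and Sox3 at 80% epiboly, which hold 6 atRA and 6 control libraries. They are called Meis2b-only sites below. The members were chosen by the presence or absence of peaks in these 14 lists, so values from those lists are given as a description without a test. The 15868 Meis2b peaks that were found in both atRA replicates and also overlapped a peak of another antibody are called shared sites.

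Meis2b is a homeodomain protein of the TALE class. Meis proteins bind DNA together with Pbx proteins and act as partners of Hox proteins, and in zebrafish they are known for their part in hindbrain patterning. Retinoic acid is the ligand of the retinoic acid receptors, of which Raraa is one, and it patterns the hindbrain and trunk by switching on Hox genes such as hoxb1b. Sox3 is an HMG box protein of early neural tissue. The Meis2b-only sites are those where none of these other proteins, a Hox protein among them, was called.

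All libraries came from whole wild-type embryos, and the labels give no strain. The groups used were Meis2b, Raraa, Hoxb1b and Sox3 at 80% epiboly, a late stage of gastrulation, in embryos exposed to 0.1 µM atRA from 30% epiboly, then the same antibodies in control embryos of that stage, and Raraa in 2 older control stages, 5 somites and 24 hours post fertilisation (hpf). Each group had 2 libraries. The treatment text in the labels names 80% epiboly as the time of collection even for these older embryos, so their stage was taken from the titles and stage entries. The labels do not say whether replicates came from separate clutches, and how many embryos were pooled is not given in the sources used here. In whole embryos, binding in more cells and more binding per cell cannot be told apart. The specificity of the antibodies was not tested in these files. In both Sox3 control lists the peak names carry the number 2.

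The lists differed in length and depth. Meis2b had 58690 and 43644 peaks on assembled chromosomes in atRA replicates 1 and 2, against 28388 and 49654 in control replicates 1 and 2. The background, an index of depth recovered from the authors' values as fragments covering a base, was 0.494 and 0.256 in the atRA libraries and 0.199 and 0.267 in the controls. The 12 lists that had to lack a peak held 23920 to 254915 peaks each, and their peaks merged covered 10.6% of the chromosomes. The lowest summit that was listed was covered by 3 to 7 fragments in these 12 libraries. A site without a peak can thus hold a few fragments of the other antibody, or more where the local background is higher, and absence of binding is not shown.

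Most Meis2b sites were called together with another antibody. Of the 17009 Meis2b peaks found in both atRA replicates, the 1141 Meis2b-only sites were 6.71%, which is the share the rule itself fixes. Sites with a peak in 8 of the 12 other lists were the most frequent, with 2183, and 617 had a peak in all 12. The smaller count of 836 sites had a peak in 1 other list. Meis2b peaks without another antibody had a smaller share found again. Of the 9895 such peaks in atRA replicate 2, 11.5% overlapped a peak of atRA replicate 1, against 47.0% of the 33749 peaks with another antibody. This share depended on strength, given as −log10 of the authors' p. Among peaks without another antibody it was 5.67% up to a −log10 p of 6, 33.4% between 8 and 11, and 86.8% between 16 and 25. Among peaks with another antibody it was higher in the same ranges, at 24.3%, 63.3% and 97.6%. The peaks of atRA replicate 1 covered 1.06% of the chromosomes. Both conditions of the rule lowered the number of members. Without atRA replicate 1 the rule kept 9895 sites, without atRA replicate 2 it kept 12469, and without the 12 other lists it kept the 17009 sites found in both replicates.

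**Figure D1:**
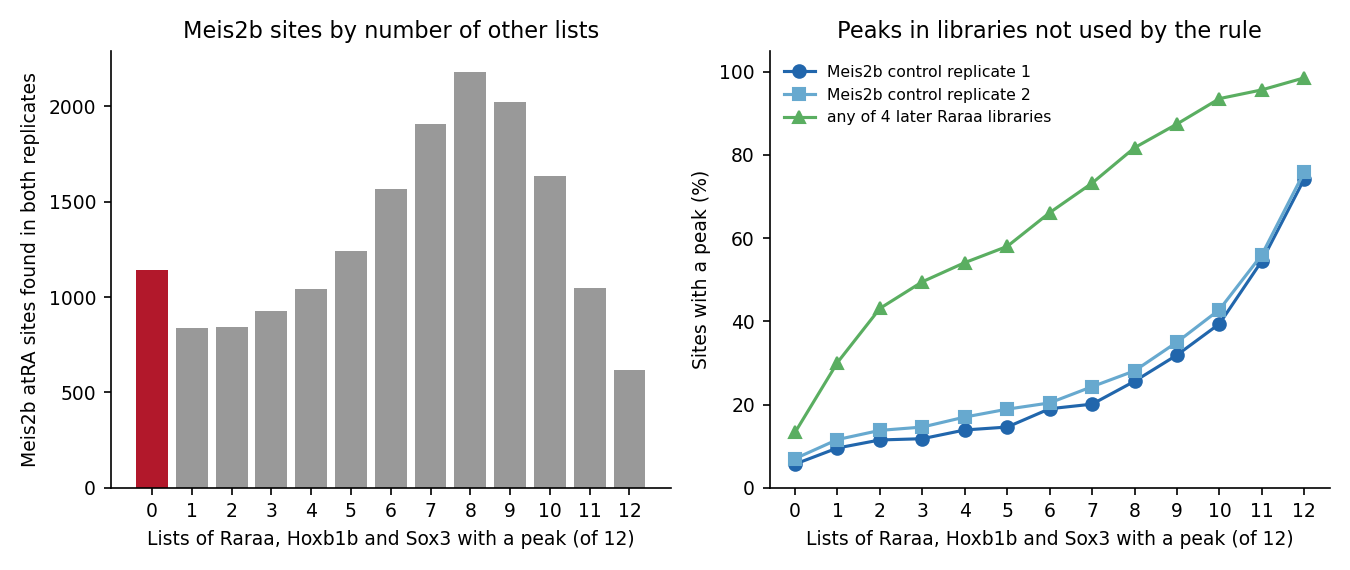
Left, the number of Meis2b sites found in both atRA replicates (y axis) by how many of the 12 lists of Raraa, Hoxb1b and Sox3 at 80% epiboly hold a peak there (x axis), with the 1141 Meis2b-only sites in red. Right, the percentage of these sites with a peak in each Meis2b control library and in any of 4 later Raraa libraries, which starts at 5.70%, 7.01% and 13.3% for the Meis2b-only sites and reaches 74.2%, 75.9% and 98.5% at 12 lists.

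The strength of the Meis2b-only sites spanned a wide range, with medians above those of all Meis2b peaks of their library and below those of shared sites. The rule required a peak in both atRA replicates, which strong peaks met more often. The first of these differences was thus favoured by the rule and is not read as a trait of Meis2b-only sites. Their fold enrichment over the local background, the authors' value at each summit, had a median of 5.56 in atRA replicate 1 (lowest 2.87, highest 20.01) and of 5.54 in atRA replicate 2 (lowest 2.87, highest 22.36). Shared sites had medians of 6.62 and 6.21 in the same libraries. The median Meis2b-only summit was covered by 11 fragments in atRA replicate 1 and 8 in atRA replicate 2, against 13 and 9 at shared sites. All Meis2b peaks of these libraries had median summits of 7 and 6 fragments, and the lowest listed had 4 and 3. By p, the median Meis2b-only site ranked about 16860 of 58690 peaks in atRA replicate 1 and about 13320 of 43644 in atRA replicate 2. Meis2b-only peaks were also narrower, with a median of 211 bp in atRA replicate 2 against 270 bp for shared sites. Summits of both replicates lay a median of 64 bp apart at Meis2b-only sites and 59 bp apart at shared sites. Across sites, the order by −log10 p was less alike between the replicates at the Meis2b-only sites (Spearman rho = 0.43, 1141 sites) than at shared sites (rho = 0.64, 15868 sites). These are descriptions across sites of 1 pair of libraries. Neighbouring sites could overlap the same peak of atRA replicate 1, and its values were then counted at each of them. The range of strength was narrower at Meis2b-only than at shared sites, and its part in the lower rho was not tested. In 431 of the 1141 Meis2b-only sites (37.8%) both peaks had a q of at most 1e-05, against 52.7% of all sites found in both replicates.

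The best-ranked sites were named by a rule on the authors' p in the atRA lists, which favours high atRA values. Their summits lay above the upper quartile of shared sites, which was 21 fragments in atRA replicate 1 and 15 in atRA replicate 2. Coordinates are in GRCz10, the build in the submitters' processing notes, and no gene annotation of that build was used here. The first was chr5:67207990-67208354, with fold enrichments of 17.95 and 19.9 in atRA replicates 1 and 2 and of 5.91 and 3.90 in control replicates 1 and 2. Its summit was covered by 56 and 62 fragments with atRA, against 8 and 4 in controls. Both atRA values lay above both control values, although its q in the controls passed the authors' threshold as well.

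The next sites had no peak in either Meis2b control. At chr17:6043797-6044070 the fold enrichment was 20.01 and 22.36 in atRA replicates 1 and 2, with 46 fragments over the summit in each. At chr7:6978860-6979150 it was 19.995 and 20.35, with 39 and 40 fragments, and the nearest peak of another antibody lay 4139 bp away. Both replicates were alike at these sites, and both controls were below the level at which a peak is listed. The chr17 site had a Raraa peak in 24 hpf replicate 1, with a fold enrichment of 4.15 and 6 fragments.

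The remaining 3 of the 6 best-ranked sites had lower fold enrichments. At chr5:15065479-15066429, the widest of the 6 at 951 bp, it was 11.1 and 11.9 in atRA replicates 1 and 2, against 4.58 in control replicate 2 and no peak in control replicate 1. At chr10:37235125-37235480 it was 14.7 and 14.1, with no control peak. At chr17:26932914-26933482 it was 12.5 and 15.4, again with no control peak, and the nearest peak of another antibody at 80% epiboly was 380 bp away. That site had a Raraa peak in 24 hpf replicate 2, with a fold enrichment of 5.29 and 8 fragments. No later Raraa peak was listed at the chr5, chr7 and chr10 sites among the 6. Of the 6 sites, 4 thus lacked a peak in both controls. This held for 89.4% of all Meis2b-only sites and for 61.5% of all sites found in both atRA replicates. The mean ranks of these sites among all Meis2b atRA peaks ran from 240.5 to 697.5, and the best of them stood at rank 348 in atRA replicate 1 and rank 133 in atRA replicate 2.

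**Figure D2:**
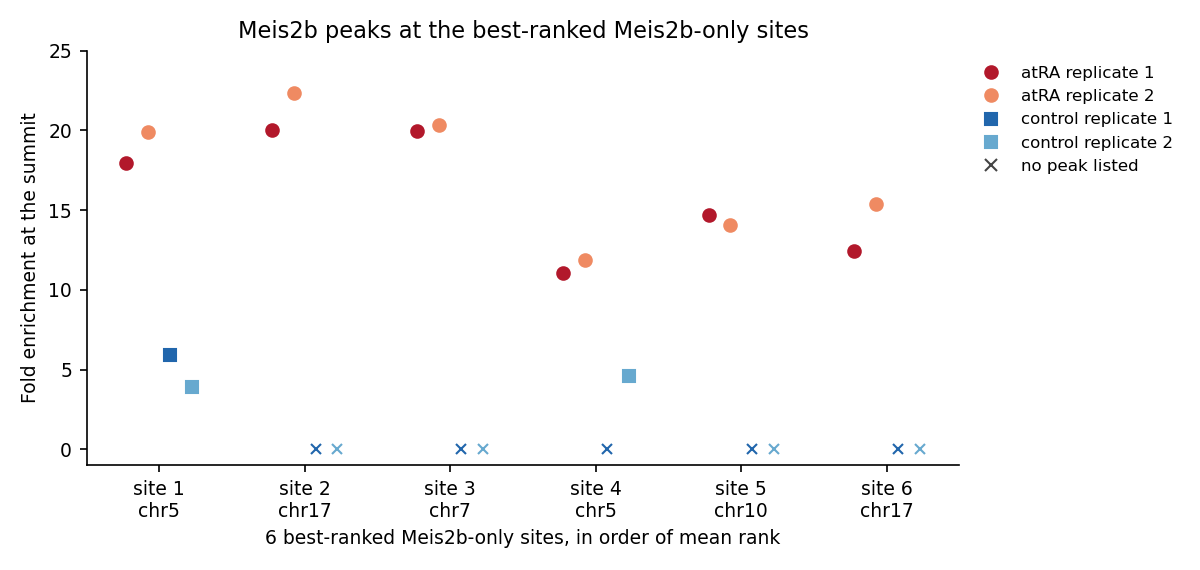
The authors' fold enrichment (y axis) at the 6 best-ranked Meis2b-only sites (x axis) in the 2 atRA libraries (circles) and the 2 control libraries (squares), with crosses at 0 where no peak is listed, which is not a measured 0. The atRA values lie between 11.1 and 22.36, and the 3 control values between 3.90 and 5.91. The sites were chosen by their p in the atRA libraries, which favours high atRA values.

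The Meis2b control lists were not used by the rule, and they show how many of these sites were called without added retinoic acid. A peak was listed at 65 of the 1141 Meis2b-only sites in control replicate 1 (5.70%), where 24.9% of all sites found in both atRA replicates had one. In control replicate 2 it was listed at 80 sites (7.01%), against 27.6% of all. The mean was 6.35% ± 0.93 at Meis2b-only sites and 27.7% ± 2.01 at shared sites (SD over n = 2 libraries each), so the gap was larger than the spread between the 2 control libraries. An exact permutation test over 2 pairs of libraries cannot give a two-sided p below 0.5, so none was made. Both controls had a peak at 24 Meis2b-only sites (2.10%, against 14.0% of all), and neither had one at 1020 (89.4%, against 61.5% of all). The 2 control lists had few peaks in common. Of the 49654 peaks of control replicate 2, 5698 overlapped a peak of control replicate 1, against 17009 of 43644 in the atRA lists. A missing control peak thus does not show that Meis2b was absent without added retinoic acid.

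The gap was also measured among sites grouped by their strength in atRA replicate 2. In each of 6 ranges of −log10 p in atRA replicate 2, the share with a control peak was smaller at Meis2b-only sites than at shared sites in both control libraries. Up to a −log10 p of 6 the shares were 3.17% of 252 Meis2b-only and 13.2% of 2385 shared sites in control replicate 1, and 4.37% and 17.9% in control replicate 2. Above 25 they were 23.7% of 38 and 57.0% of 1537 sites in control replicate 1, and 28.9% and 60.4% in control replicate 2. Peak width still differed within the ranges, with medians of 168 and 178 bp in the lowest and 450 and 506 bp in the highest. The highest range has no upper limit, and −log10 p reached 67.1 at Meis2b-only and 161 at shared sites. Strength in atRA replicate 1 was not matched. The share also grew with the number of other lists, from 9.57% and 11.6% at 1 list, in control replicates 1 and 2, to 74.2% and 75.9% at 12 lists. Meis2b-only sites were thus at the low end of a gradient. Its relation to how easily a place is called with any antibody was not tested.

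**Figure D3:**
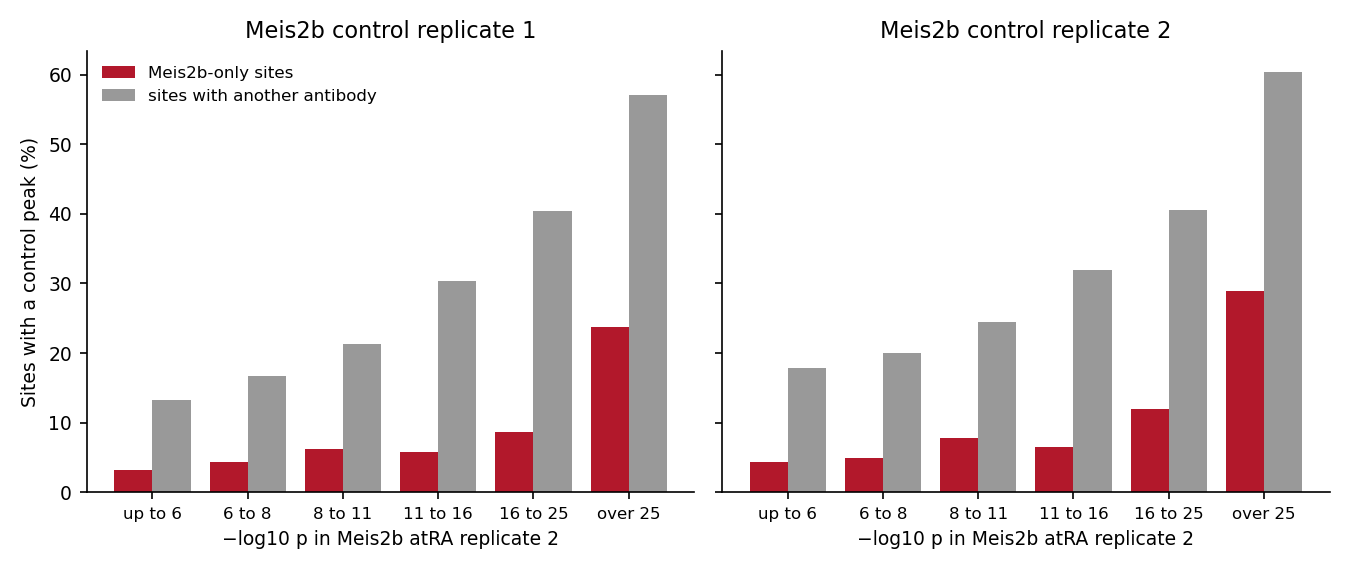
The percentage of sites with a Meis2b control peak (y axis) for Meis2b-only sites (red) and shared sites (grey), in 6 ranges of −log10 p in Meis2b atRA replicate 2 (x axis), for control replicate 1 (left) and 2 (right). The red bars run from 3.17% to 23.7% on the left and from 4.37% to 28.9% on the right, below the grey bar of the same range in every case.

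Where a control peak was listed, its median fold enrichment was lower than that of the atRA peaks, while single sites went both ways. At the 65 sites with a peak in control replicate 1, the median fold enrichment was 6.60 and 6.37 in atRA replicates 1 and 2, against 5.64 in that control. The control value lay below both atRA values at 30 sites and above both at 13. At the 80 sites of control replicate 2 the medians were 5.93 and 6.33 in the atRA libraries and 5.05 in the control, with 42 sites below both and 11 above both. The background is part of this ratio and differed between the libraries, and its part in the difference was not tested. These counts below and above both atRA values were not made for all sites found in both atRA replicates with that control peak. Whether they set Meis2b-only sites apart is thus not known. Control and atRA summits lay a median of 49 and 58 bp apart for control replicates 1 and 2, about as far as the atRA replicates from each other. The 24 sites called in both controls had median fold enrichments of 7.48 and 8.15 in atRA replicates 1 and 2, against 5.51 and 5.47 at the 1020 sites called in neither. Both control values lay below both atRA values at 12 of the 24 sites, where this held for 57.1% of all 2382 sites found in both atRA replicates and called in both controls. The groups overlapped at 10 (41.7%, against 35.9% of all), and both control values lay above both atRA values at 2 (8.33%, against 6.97% of all). Examples of these, chosen after their values were seen, follow. At chr23:7644860-7645875 the fold enrichment was 10.04 and 12.8 in atRA replicates 1 and 2, and 12.2 and 6.96 in control replicates 1 and 2, so the groups overlap. At chr25:36702818-36703130 it was 5.56 and 4.89 in atRA replicates 1 and 2, and 7.22 and 6.35 in control replicates 1 and 2. At chr15:6708151-6708482 it was 4.19 and 4.49 in the atRA libraries, and 6.28 and 4.63 in the controls. By fold enrichment, both controls were above both atRA libraries at both of these last sites. By fragments over the summit they were not. The chr25 site had 14 and 8 with atRA and 12 and 11 in controls, and the chr15 site 19 and 13 with atRA and 9 and 5 in controls. The chr23 site had 45 and 54 with atRA and 23 and 14 in controls.

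**Figure D4:**
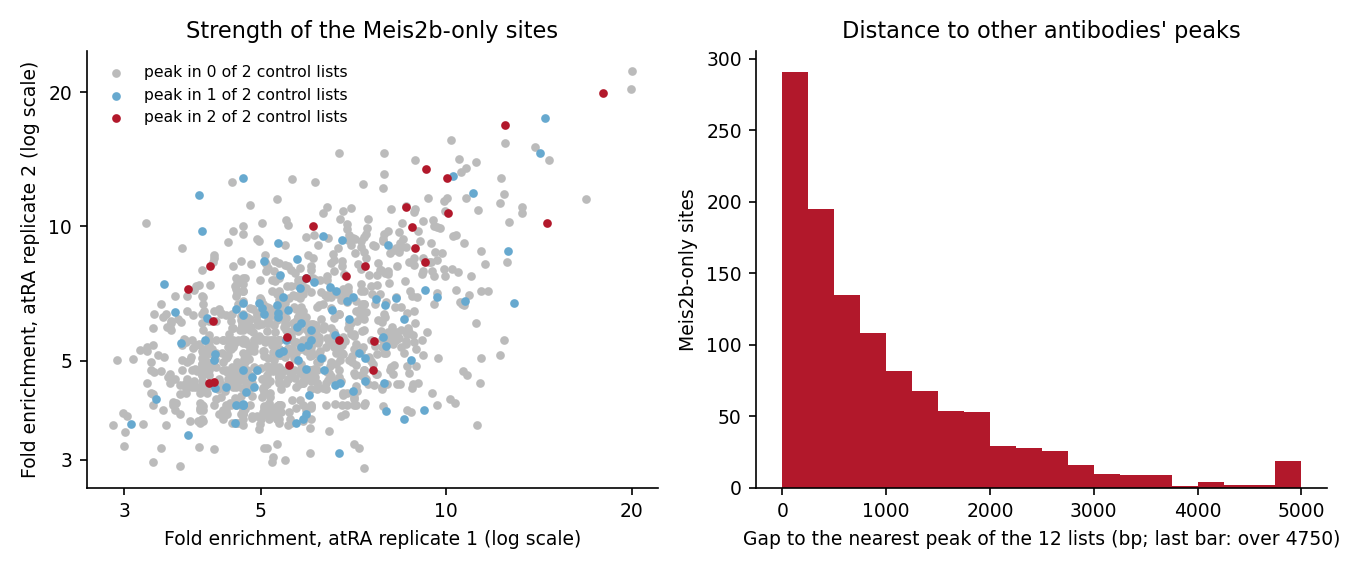
Left, the fold enrichment of each of the 1141 Meis2b-only sites in atRA replicate 1 (x axis, log scale) and atRA replicate 2 (y axis, log scale), coloured by the number of Meis2b control lists with a peak; the 24 sites called in both controls spread over the range, with higher medians than the rest. Right, the number of Meis2b-only sites (y axis) by the gap to the nearest peak of the 12 other lists (x axis, in 250 bp steps), with 291 sites in the first step and 19 in the last, which also holds all longer gaps.

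Many Meis2b-only sites lay a short distance from a peak of another antibody. The 12 lists held 1206504 peaks in all, and the median Meis2b-only site lay 652 bp from the nearest of them. A peak of another antibody lay within 500 bp of 486 sites (42.6%) and within 100 bp of 138 sites (12.1%). No such peak lay within 1000 bp of 412 sites (36.1%), and none within 5000 bp of 16 sites (1.40%). The merged peaks of the 12 lists covered 10.6% of the chromosomes. Distances are not given here for other Meis2b peaks without another antibody, so short gaps are not shown to be particular to these sites. Just inside the rule, chr18:2549971-2550117 touched a peak of another antibody without sharing a base, and chr16:25919597-25919806 lay 1 bp from one. Just outside it, chr18:14997729-14997979 shared 1 base with a peak of Raraa atRA replicate 1, and chr7:59091625-59091783 shared 1 base with a peak of Sox3 control replicate 1. Fold enrichments at the members just inside were 4.35 and 5.57 at the first and 8.70 and 5.81 at the second, in atRA replicates 1 and 2. Those just outside had 3.98 and 4.70, and 6.96 and 4.78.

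The 836 sites with a peak in exactly 1 of the 12 lists show which library kept a site out. Raraa atRA replicate 1, the longest list, was that library at 227 sites (27.2%), followed by Hoxb1b atRA replicate 1 at 136 (16.3%). Raraa control replicate 1, the shortest list, was it at 13 (1.56%). Most of these single peaks had a q above 1e-05, as did 180 of the 227 in Raraa atRA replicate 1. Most peaks of that whole list were above it as well, since 57246 of its 254915 peaks had a q of at most 1e-05. Leaving out 1 of the 12 lists at a time gave between 1154 and 1368 sites. Counting only peaks with a q of at most 1e-05 in the 12 lists gave 2491 sites, and cutting each of the 12 lists to its strongest 23920 peaks gave 3450.

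Raraa at later stages of control embryos was not used by the rule either, although the rule required Raraa to be absent at 80% epiboly. At 5 somites a Raraa peak was listed at 36 Meis2b-only sites in replicate 1 (3.16%, against 39.3% of all sites found in both atRA replicates) and at 44 in replicate 2 (3.86%, against 38.8%). At 24 hpf it was listed at 49 in replicate 1 (4.29%, against 33.6%) and at 47 in replicate 2 (4.12%, against 45.1%). The means were 3.51% ± 0.496 at 5 somites and 4.21% ± 0.124 at 24 hpf (SD over n = 2 libraries each), and at shared sites 41.6% ± 0.463 and 41.9% ± 8.74. Few calls repeated. Both replicates had a peak at 3 Meis2b-only sites at 5 somites (0.263%, against 25.4% of all) and at 4 at 24 hpf (0.351%, against 23.5% of all). A Raraa peak in any of the 4 libraries was found at 152 sites (13.3%, against 68.4% of all), and in exactly 1 of them at 131 sites (11.5%, against 22.8% of all). The 4 later lists held 109146 to 116351 peaks each, and each list covered 1.44% to 1.69% of the chromosomes. What share of places of like width would overlap such lists by position alone was not computed. The few overlaps at Meis2b-only sites are thus not shown to be Raraa binding of these sites.

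No Meis2b-only site had a Raraa peak in all 4 later libraries, against 14.8% of all sites found in both atRA replicates. The 3 sites with a peak in 3 of them were named after their values were seen. In atRA replicate 1 their Meis2b fold enrichments were below the Meis2b-only median of 5.56. At chr16:1249856-1250067 Meis2b had fold enrichments of 4.81 and 5.31 in atRA replicates 1 and 2, and Raraa had 5.64 in 5 somites replicate 1, 7.47 in 24 hpf replicate 1 and 4.76 in 24 hpf replicate 2. The others were chr18:2549971-2550117, which touches a peak at 80% epiboly, and chr5:1389401-1389585. In atRA replicate 2 the chr18 site had a Meis2b fold enrichment of 5.57, about the Meis2b-only median of 5.54, and the chr5 site had 4.65. Later Raraa peaks were listed at 29 of 97 sites called in 1 control (29.9%) and 6 of the 24 called in both, against 117 of 1020 called in neither (11.5%). The same shares were not computed for all sites found in both atRA replicates, so this difference is not shown to be particular to Meis2b-only sites. In all, 903 Meis2b-only sites (79.1%, against 25.4% of all) had neither a Meis2b control peak nor a later Raraa peak.

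The same rule was applied with each other antibody in the place of Meis2b, to set the control shares of Meis2b beside theirs. In atRA embryos it gave 4740 Raraa-only, 652 Hoxb1b-only and 8725 Sox3-only sites, which were 15.4%, 1.97% and 13.1% of the sites found in both replicates of that antibody. Hoxb1b-only sites had Hoxb1b control peaks at 4.60% and 4.45% in control replicates 1 and 2, against 22.3% and 22.7% of its shared sites. Raraa-only sites had Raraa control peaks at 3.40% and 18.4%, against 18.9% and 52.8%. Sox3-only sites had Sox3 control peaks at 38.0% and 42.9%, against 57.6% and 68.8%. The ratio of the share at sites called alone to that at shared sites was 0.217 and 0.241 for Meis2b in control replicates 1 and 2, near the ratios of Hoxb1b (0.207 and 0.196) and below those of Sox3 (0.660 and 0.624). The Raraa ratios, 0.179 and 0.348, lay below and above those of Meis2b. The control lists differ in length between antibodies, and this comparison was not tested.

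Meis2b-only sites lay on all 25 chromosomes. Their share of the sites found in both atRA replicates was lowest on chromosome 18 (3.69%) and highest on chromosome 25 (9.66%), and the next lowest was 5.58% on chromosome 15. Within 1 Mb of a chromosome end, taken as its first base or the end of the last peak listed in any library, lay 109 Meis2b-only sites (9.55%), against 6.10% of all sites found in both atRA replicates. Among the 100 best-ranked sites of each kind, 20 Meis2b-only and 6 shared sites lay there. These 100 are a larger part of the Meis2b-only sites than of the shared sites, so the sets were not selected alike.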

How the data were processed

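ChIP-seq peak lists of 20 libraries were used, 1 list per library. Per the submitters' processing notes, Bowtie, SAMtools and MACS2 were used with build GRCz10 (danRer10). Versions, peak calling settings, the use of an input library and the treatment of duplicate reads are not given in the sources used here. Names within each list carry 1 prefix. Peaks were taken as called per library, although a prefix does not show which reads a call used. The deposited values per peak are the authors' fold enrichment (a ratio over local background), −log10 p and −log10 q, a score that is 10 times −log10 q, and a summit. The largest deposited q-value was just under 0.05. They were used to rank and describe peaks within a list.

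Peaks on 25 chromosomes were kept (pandas 2.3.3, numpy 2.4.6, scipy 1.17.1), and overlap means at least 1 bp. Summit pileups k and backgrounds b were solved from fold enrichment, (k+1)/(b+1), and the Poisson p, to within 0.002 in −log10 p for 100% of peaks. The background of a library is the 0.001 quantile of b. Reads per library are unknown, so no intervals are given. Fold enrichment shrinks where the background is low, since 1 is added to both terms. Ranges of strength were set after the data had been seen. The overlap and pileup steps were tested on simulated data.

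Named sites are the 6 members with the best mean rank by p in the 2 atRA lists, the 4 best without a Meis2b control peak (all among the 6), and members with Raraa peaks in all 4 later libraries, of which there were none. Members and lists were chosen with earlier results of these data known. Every comparison is a description with no test, because an exact permutation test over 2 libraries per group cannot give a two-sided p below 0.333 (0.5 for pairs) and sites are not replicates. Alternatives covered thresholds, overlap, distance, anchor and leaving out libraries. Planned motif searches and distances to genes were not run, since no genome or annotation of GRCz10 was used here.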

Additional observations from a re-analysis of the deposited data

How the results depend on the processing

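The number of Meis2b-only sites depended on the Meis2b atRA replicates and on the counting rules. Against 1141 sites, requiring a q of at most 1e-05 in both Meis2b atRA libraries gave 431, no other peak within 500 bp gave 655, leaving out all 4 Sox3 lists gave 1762, a q of at most 1e-05 in the 12 other lists gave 2491, and cutting these lists to equal length gave 3450. Leaving out single libraries gave 1154 to 12469 sites. The highest, 9895 and 12469, came without Meis2b atRA replicate 1 and replicate 2. Requiring 50% of the anchor peak to overlap a peak of atRA replicate 1 gave 879. The 12 other lists kept the limit of 1 bp there, so their part of the rule was not varied. The count stayed within 1.5 times. So did atRA replicate 1 as the anchor (1090), no Raraa list (1561) and no Hoxb1b list (1512). Equal lists, leaving out an antibody and the 500 bp limit on the shares were added once values were known.

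The mean share with a Meis2b control peak was 2.02% with stricter control peaks, 3.64% with 50% overlap, 8.93% among the stricter members and 11.5% with equal lists, and 5.70% to 7.01% with a control library left out. In the first 4 settings the sites with other antibodies had 13.1%, 17.7%, 36.6% and 30.0%. The share with a Raraa peak at 5 somites was 0.438%, 2.15%, 2.44% and 12.9% in the same settings, and 3.16% to 3.86% with a library left out. At 24 hpf it was 0.613%, 2.59%, 3.02% and 13.2%, with 4.12% to 4.29%, and 3.13% without other peaks within 500 bp. The lower share at Meis2b-only than at other sites held in all of these first 4 settings. The cause of the movements was not tested. No paired analysis was possible because an exact test over 2 pairs of libraries cannot give a two-sided p below 0.5, and no test was made. Motifs and positions relative to genes were not run. Low pileups limit these results, with median summits of 8 fragments at Meis2b-only sites and 6 over all peaks in atRA replicate 2, where the lowest listed has 3.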

Other observations

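Within 1000 bp of another Meis2b-only site lay 152 of them (13.3%), against 14.4% of all 17009 sites found in both atRA replicates within 1000 bp of another such site. Within 5 kb the numbers were 166 (14.5%) and 27.8%. The larger set has more sites per length, so the shares were not compared. At 5 kb the Meis2b-only sites formed 1052 loci, and the largest held 4 sites. One of these, chr21:716303-718812, is 2510 bp long and had fold enrichments of 3.81 to 6.48 in atRA replicate 1 and of 3.41 to 7.33 in atRA replicate 2, with a Meis2b control peak at 2 of its 4 sites.

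Applied to the Meis2b controls, the same rule gave 339 sites, 5.95% of the 5698 found in both controls. They overlapped 20 of the Meis2b-only sites of treated embryos (1.75%), and 22 of the 339 (6.49%) took part in these overlaps. Each of the 339 had a peak in both controls. Peaks of both controls were listed at only 24 Meis2b-only sites (2.10%), against 14.0% of all sites found in both atRA replicates. The overlap with the 339 is not given here for all those sites, so 1.75% is not a measure of turnover.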
